A study of Mus musculus with 50 samples.

Results

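Car9-high and Car9-low mammary gland tumors of p53R270H/+WAPCre mice were compared. All 50 tumors of the series came from female mice that carry a point mutation in the tumor suppressor p53, which the Cre recombinase under the WAP milk protein promoter switches on in mammary epithelium. From an age of 8 weeks these mice received a subcutaneous injection every other day with vehicle, insulin, glargine, X10 or IGF1, with 10 tumors per treatment. The paper states that these were selected from a larger number per treatment. Chosen were tumors resembling an epithelial to mesenchymal transition, with a latency nearest to the median of their treatment. The 50 tumors are therefore not an unselected range of tumor types. Both glargine and X10 are insulin analogues with an altered amino acid sequence, and IGF1 is the growth factor most closely related to insulin. The 10 tumors titled Untreated were taken as the vehicle group and keep that title in their names. Tumors were isolated at a size of 1 cm3, 24 h after the last injection, and Poly-A RNA from a piece of each tumor, with all its cell types, was sequenced, so that fewer cells of a type and less RNA per cell cannot be told apart.

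The tumors were selected on the RPKM value of Car9, that is its read count divided by the length of the gene and by the library size, after tumor insulin_13 had been left out. The 12 tumors with the highest and the 12 with the lowest value form the groups, irrespective of treatment, which is 24 of the 50 tumors, and 25 tumors lie between them. In insulin_13 the 10 most abundant genes took 23.6% of all RPKM, against at most 11.6% in the other 49 tumors. Library size was between 31.8 and 51.3 M reads in the Car9-high tumors and between 26.6 and 51.9 M reads in the Car9-low tumors. The most similar pair of tumors, insulin_21 and glargine_70, had a Pearson correlation of 0.992 across genes, and both are Car9-high tumors. No limit was set for this correlation, and every tumor, with a mouse number of its own, was counted as 1 sample.

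Car9 encodes carbonic anhydrase 9, an enzyme on the cell surface that helps tumor cells to export acid and a well known target of the hypoxia-inducible factors. These factors are transcription factors of which the alpha subunits, such as those encoded by Hif1a and Epas1, are hydroxylated by oxygen-dependent enzymes of the Egln family and then degraded via the Vhl protein. When oxygen is low, the alpha subunit remains, pairs with the Arnt protein and activates genes for glucose uptake, glycolysis, vessel growth, mitophagy and pH control. In solid tumors this program is usually found in regions far from vessels.

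The core of the DNA element to which these factors bind reads ACGTG or GCGTG. The 250 bases before a RefSeq start of Car9 and of 4 genes that rose in Car9-high tumors, Slc2a1, Ldha, Bnip3 and Ankrd37, are shown since each holds this core (GRCm38, 5′ to 3′ on the strand of the gene, with each core in capitals, as CACGT or CACGC where it lies on the opposite strand).
Car9, chr4:43506776-43507025, plus strand: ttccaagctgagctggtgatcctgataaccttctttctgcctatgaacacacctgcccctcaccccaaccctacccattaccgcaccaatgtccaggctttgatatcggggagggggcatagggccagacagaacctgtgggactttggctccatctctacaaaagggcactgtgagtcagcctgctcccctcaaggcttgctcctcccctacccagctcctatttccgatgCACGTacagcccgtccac
Slc2a1, chr4:119108495-119108744, plus strand: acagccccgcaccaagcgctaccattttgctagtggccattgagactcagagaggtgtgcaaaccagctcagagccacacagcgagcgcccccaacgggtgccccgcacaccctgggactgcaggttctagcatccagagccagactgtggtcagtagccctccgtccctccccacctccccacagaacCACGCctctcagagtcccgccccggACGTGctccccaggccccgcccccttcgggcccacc
Ldha, chr7:46845554-46845803, plus strand: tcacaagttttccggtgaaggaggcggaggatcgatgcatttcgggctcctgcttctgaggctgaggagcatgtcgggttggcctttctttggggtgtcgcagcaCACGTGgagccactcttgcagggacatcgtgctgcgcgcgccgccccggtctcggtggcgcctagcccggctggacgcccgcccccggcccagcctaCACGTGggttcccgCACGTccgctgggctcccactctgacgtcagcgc
Bnip3, chr7:138909507-138909756, minus strand: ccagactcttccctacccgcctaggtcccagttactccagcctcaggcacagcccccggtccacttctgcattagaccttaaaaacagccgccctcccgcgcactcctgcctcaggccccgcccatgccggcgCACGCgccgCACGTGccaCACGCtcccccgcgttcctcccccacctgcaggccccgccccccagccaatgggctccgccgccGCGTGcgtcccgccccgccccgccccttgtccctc
Ankrd37, chr8:45999851-46000100, minus strand: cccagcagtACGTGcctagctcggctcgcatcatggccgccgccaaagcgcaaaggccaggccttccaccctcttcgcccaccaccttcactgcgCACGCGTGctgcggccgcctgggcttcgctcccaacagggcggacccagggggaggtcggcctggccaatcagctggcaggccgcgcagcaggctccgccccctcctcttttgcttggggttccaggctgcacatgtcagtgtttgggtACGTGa
The single core in the Car9 window starts 18 bases before the start. In Slc2a1 there were 2 cores, at 61 and 36 bases, while the Ldha and Bnip3 windows held 5 matches each, where a CACGTG counts as a match on both strands. Ldha has a second RefSeq start, the window of which held 1 match. A core on either strand was present in at least 1 window of 11 of the 12 genes called higher that had an entry (91.7%) and of 24 of 29 hypoxia target genes (82.8%), which share 6 genes with the former, against 59.7% of the 10354 tested genes with an entry and 38.6% of all 32851 windows. A gene with several starts was counted when any of its windows held a core, and both Pgf and Vegfa also have a window without one. Gm16754 had no entry. A match describes the letters only. In GENCODE the other called genes with a name lie elsewhere in the genome: Pgf at chr12:85166635-85177790 (minus strand), Mapk13 at chr17:28769297-28780233 (plus strand), Ero1l at chr14:45283087-45318771 (minus strand), Atf3 at chr1:191170296-191218039 (minus strand), Adm at chr7:110627661-110629820 (plus strand). Vegfa lies at chr17:46016993-46032369 (minus strand), Pfkl at chr10:77986947-78010083 (minus strand) and Unc13a at chr8:71624417-71671757 (minus strand).

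The Car9 values that chose the tumors are given as a description. In the Car9-high tumors Car9 was between 11.7 and 30.4 RPKM with a median of 13.9 RPKM, and in the Car9-low tumors between 2.58 and 4.33 RPKM with a median of 3.70 RPKM. The last tumor inside the Car9-high group was Untreated_187 with 11.7 RPKM and the first outside it was glargine_62 with 11.6 RPKM. On the other side, insulin_18 with 4.33 RPKM was inside the Car9-low group and IGF1_158 with 4.54 RPKM was just outside. The ranking is therefore continuous at both limits.

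**Figure D1:**
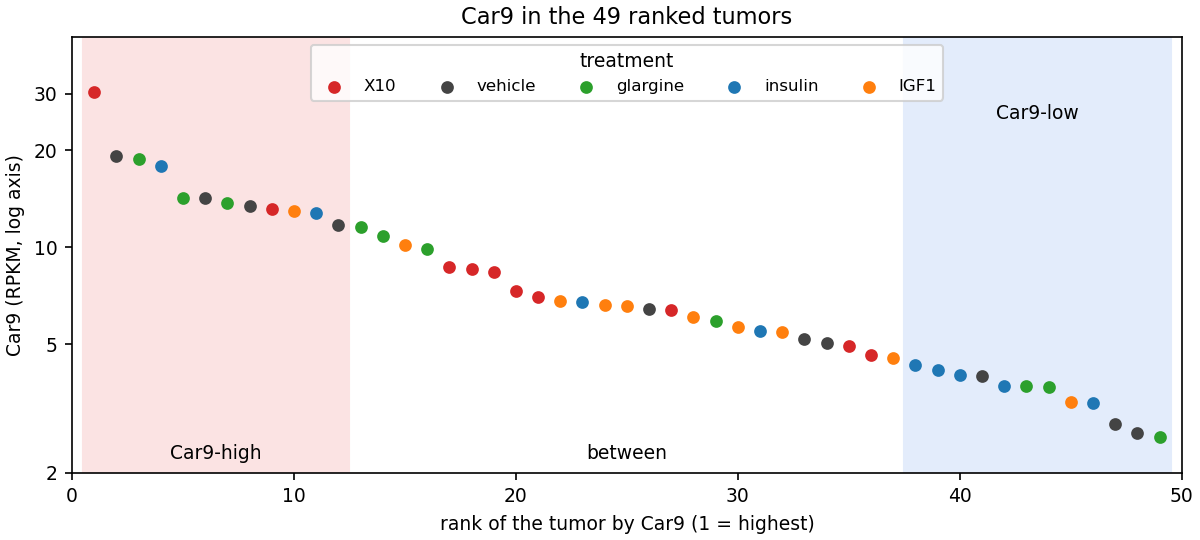
Car9 in RPKM (log axis) by rank in the 49 ranked tumors, one point per tumor colored by treatment, with the Car9-high tumors shaded red and the Car9-low tumors shaded blue. X10_95 stands above all others with 30.4 RPKM, and there is no gap at either limit of the groups.

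Treatment was not used to form the groups. The Car9-high tumors were 4 vehicle, 3 glargine, 2 insulin, 2 X10 and 1 IGF1 tumors, and the Car9-low tumors were 5 insulin, 3 vehicle, 3 glargine and 1 IGF1 tumors, without any X10 tumor. Median Car9 was 5.81 RPKM in vehicle, 4.33 RPKM in insulin, 10.4 RPKM in glargine, 7.87 RPKM in X10 and 6.35 RPKM in IGF1 tumors. Treatment accounted for 5.64% of the variance of log2(Car9 RPKM + 0.5) over the 49 tumors (p = 0.625, permutation test with 100000 resamples). Against vehicle the mean differed by between -0.22 (insulin) and 0.28 (X10) on this log2 scale, and none of the 4 differences passed the test (adjusted p = 0.76 for each, two-sided exact permutation tests, n = 9 for insulin and 10 for the others). A difference in Car9 between treatments was thus not detectable with the spread between tumors of one treatment.

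Between the groups, 14 of 16732 tested genes differed with an adjusted p-value under 0.05 (0.0837%), of which 13 were higher (0.0777%) and 1 was lower (0.00598%) in Car9-high tumors (limma on log2(RPKM + 0.5), Benjamini-Hochberg adjustment, 12 tumors per group). Car9 itself was not tested. Before adjustment 5.55% of all genes were higher and 11.6% were lower at a p-value under 0.05, and the median log2 difference of all genes was -0.07. This excess of lower genes depended on the scaling: 929 genes were higher and 1937 lower with RPKM as deposited, 1167 and 1471 with upper quartile scaling, and 1332 and 1128 with quantile normalization. Of the 13 higher genes, 6 belong to a list of 35 hypoxia target genes. With the mean level of 20 epithelial genes as a covariate 0 genes were called (1039 at an unadjusted p-value under 0.05), as described with the epithelial genes. With treatment as a covariate 24 genes were called, among them all 14. No gene separated the groups fully: in 0 of the tested genes (0.0%) were all Car9-high tumors above all Car9-low tumors, and the reverse was also seen in 0 genes (0.0%).

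**Figure D2:**
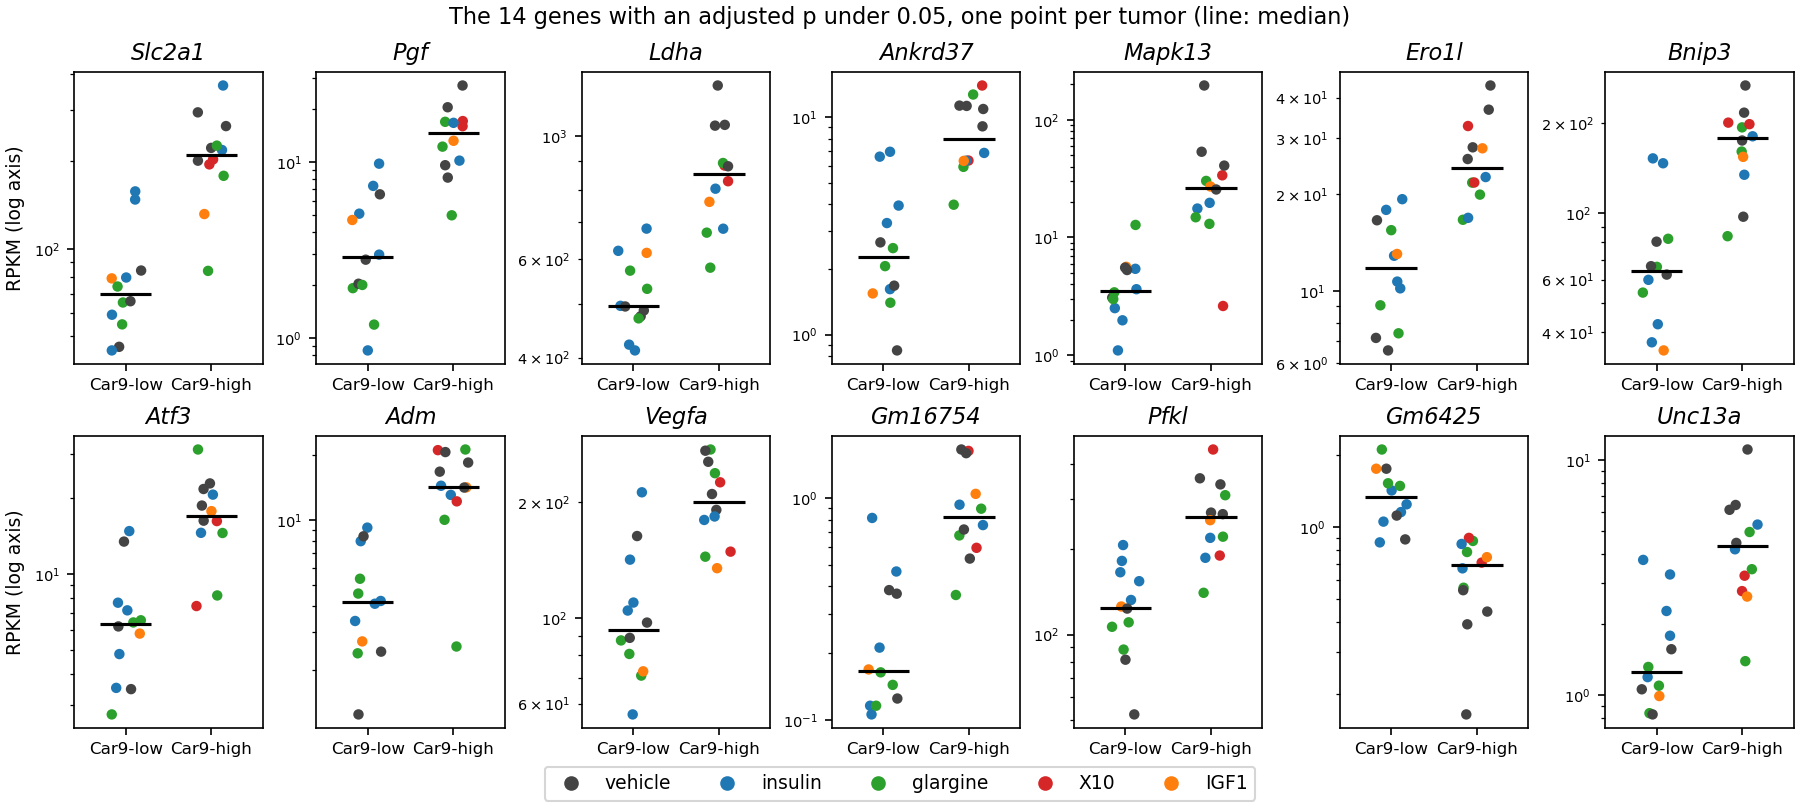
RPKM (log axis) of the 14 genes with an adjusted p-value under 0.05 in the 12 Car9-low and the 12 Car9-high tumors, one point per tumor colored by treatment, with a line at the median. The groups overlap in every gene, and 2 Car9-low insulin tumors often lie at the level of the Car9-high tumors.

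Genes of glucose uptake and glycolysis were among the clearest. Slc2a1, which encodes the glucose transporter GLUT1, was between 84.0 and 364 RPKM with a median of 211 RPKM in Car9-high tumors and between 44.8 and 157.6 RPKM with a median of 70.2 RPKM in Car9-low tumors. It was higher by 1.45 ± 0.22 on the log2 scale (SE, adjusted p = 0.00738, limma), and 10 of the 12 Car9-high tumors lay above every Car9-low tumor. The exceptions were glargine_63 with 84.0 RPKM and IGF1_136 with 131.7 RPKM, while the Car9-low tumors insulin_27 and insulin_18 reached 157.6 and 148 RPKM. Ldha, lactate dehydrogenase A, was between 580 and 1232 RPKM (median 856 RPKM) against between 412 and 682 RPKM (median 495 RPKM). Its log2 difference was 0.70 ± 0.11 (adjusted p = 0.00934, limma). Pfkl, the liver form of phosphofructokinase, was between 140 and 449 RPKM (median 259 RPKM) against between 52.3 and 207 RPKM (median 124.5 RPKM), a log2 difference of 1.08 ± 0.20 (adjusted p = 0.0152, limma). For both genes 9 Car9-high tumors were above all Car9-low tumors. Without the 3 tumors of highest epithelial score, described with the epithelial genes, Pfkl had a difference of 1.05 and was not called (adjusted p = 0.0858, limma).

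Over the whole list of 20 glycolytic genes, these 3 were called higher and none was called lower, and 19 had a positive difference with a median of 0.58 on the log2 scale, against 37.8% positive and a median of -0.07 over all genes tested. At an unadjusted p-value under 0.05, 17 were higher, against 5.55% of all genes, and 1 was lower. Eno1 (0.70, adjusted p = 0.0577), Pdk1 (0.72, adjusted p = 0.0608), Pgk1 (0.58, adjusted p = 0.0608) and Tpi1 (0.81, adjusted p = 0.0608) were just outside the threshold in the same limma fit. Pdk1 encodes the kinase that keeps pyruvate from entering the mitochondrial cycle. The one gene with a negative value was Pfkm, the muscle form of phosphofructokinase, with -0.51 (adjusted p = 0.207). The hexokinases Hk2 and Hk1 had values of 0.57 and 0.25, and the other glucose transporter of the list, Slc2a3, had 0.30, all 3 without passing the test.

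Of the genes for secreted angiogenic ligands, 3 of 13 rose, against 0.0777% of all genes called higher. Pgf encodes placental growth factor, a ligand of the VEGF family, and was between 4.98 and 27.3 RPKM (median 14.6 RPKM) in Car9-high against between 0.847 and 9.79 RPKM (median 2.88 RPKM) in Car9-low tumors, a log2 difference of 1.89 ± 0.30 (adjusted p = 0.00934, limma). Adm, the vasodilating peptide adrenomedullin, was between 2.58 and 21.3 RPKM (median 14.3 RPKM) against between 1.25 and 9.22 RPKM (median 4.14 RPKM), a difference of 1.62 ± 0.29 (adjusted p = 0.0152). Except for glargine_63, every Car9-high tumor was above every Car9-low tumor for Adm. Vegfa, the main growth factor for endothelium, was between 134.8 and 274 RPKM (median 201 RPKM) against between 56.2 and 212 RPKM (median 93.1 RPKM), a difference of 0.99 ± 0.18 (adjusted p = 0.0152), with 5 Car9-high tumors above all Car9-low tumors. The median of the 13 ligands was 0.13 (0.04 with treatment as a covariate), and Vegfc, the ligand for lymphatic vessels, had a value of -0.57 (adjusted p = 0.265). None of the 18 endothelial genes passed the test. Their median was -0.21, with 7 lower and 1 higher at an unadjusted p-value under 0.05, against 11.6% lower and 5.55% higher over all genes, and 4 lower with the epithelial score described with the epithelial genes as a covariate. Tek, the receptor for angiopoietins, had the smallest p-value of them, with a median of 2.43 RPKM in Car9-high and 4.87 RPKM in Car9-low tumors and a difference of -0.90 ± 0.20 (adjusted p = 0.0577). Kdr, the main receptor for Vegfa, was at -0.60 (adjusted p = 0.146) and Pecam1 at -0.20 (adjusted p = 0.475).

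Bnip3, Ero1l, Ankrd37 and Atf3 were also called. Bnip3, the only one of 12 autophagy genes that passed the test, encodes a mitochondrial receptor for autophagy and was between 83.9 and 268 RPKM (median 178 RPKM) in Car9-high against between 34.8 and 153 RPKM (median 64.3 RPKM) in Car9-low tumors, a log2 difference of 1.30 ± 0.23 (adjusted p = 0.0119, limma). Its relative Bnip3l had a value of 0.30 (adjusted p = 0.177). Ero1l, the oxidase that forms disulfide bonds in the endoplasmic reticulum, was between 16.7 and 43.6 RPKM (median 24.2 RPKM) against between 6.56 and 19.3 RPKM (median 11.8 RPKM), a difference of 1.10 ± 0.19 (adjusted p = 0.00934), with 10 Car9-high tumors above all Car9-low tumors. Ankrd37, an ankyrin repeat gene known as a target of these factors, was between 3.97 and 14.0 RPKM (median 7.99 RPKM) against between 0.846 and 6.95 RPKM (median 2.29 RPKM), a difference of 1.55 ± 0.25 (adjusted p = 0.00934). As for Slc2a1 and Bnip3, insulin_18 and insulin_27 were the highest Car9-low tumors for Ankrd37. Atf3, a stress-induced transcription factor, was between 7.45 and 31.3 RPKM (median 17.0 RPKM) against between 2.76 and 14.8 RPKM (median 6.30 RPKM), a difference of 1.35 ± 0.24 (adjusted p = 0.0152). It was the only one of 18 stress response genes that was called. At an unadjusted p-value under 0.05, 4 of them were higher and 1 was lower, against 5.55% and 11.6% of all genes. Ddit3 and Trib3, which act in the response to unfolded proteins, had values of 0.80 and 0.82 (adjusted p = 0.148 and 0.152).

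Mapk13, which encodes the p38 delta kinase, had the largest difference of the called genes. It was between 2.62 and 195.3 RPKM (median 26.3 RPKM) in Car9-high and between 1.10 and 12.8 RPKM (median 3.53 RPKM) in Car9-low tumors, a log2 difference of 2.57 ± 0.43 (adjusted p = 0.00934, limma). With the epithelial score as a covariate it was 1.74 (adjusted p = 0.214), below Pgf. In all but X10_120, with 2.62 RPKM, it was above every Car9-low tumor. The highest value was in Untreated_174, which also had the highest epithelial score. The other 3 called genes fell outside the rule for names or lists and are named since they were called. Unc13a, known for its role in the release of synaptic vesicles, was between 1.39 and 11.1 RPKM against between 0.827 and 3.76 RPKM (1.22 ± 0.24, adjusted p = 0.0403). Its call depended on single tumors. With each of the 24 tumors left out in turn, Unc13a was called in only 7 fits. Its difference in these 24 fits was between 1.10 and 1.34, with adjusted p-values up to 0.0953 (limma). Gm16754, at chr9:21225371-21233046 on the plus strand, is an antisense RNA that overlaps Keap1, so that its reads may partly belong to Keap1, and was between 0.366 and 1.66 RPKM against between 0.106 and 0.814 RPKM (0.90 ± 0.17, adjusted p = 0.0152). Gm6425, at chr19:8588407-8589196, was the gene called lower, with between 0.165 and 0.899 RPKM against between 0.861 and 2.10 RPKM (-0.71 ± 0.13, adjusted p = 0.0212). It is annotated as a processed pseudogene, so that its reads may belong to its parent gene. Its call was lost with quantile normalization, over all genes with a nonzero value and without the 3 tumors of highest epithelial score, where no gene was called lower. The same was seen when glargine_64, glargine_67, glargine_78 or Untreated_197 was left out.

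All 35 hypoxia target genes passed the filter on low values. Of these, 30 had a positive difference with a median of 0.60 and a range from -0.29 to 1.62 on the log2 scale, and 25 were higher, against 5.55% of all genes, and 0 were lower at an unadjusted p-value under 0.05. After adjustment the 6 called genes were Slc2a1, Ankrd37, Ero1l, Bnip3, Adm and Vegfa. Ndrg1, a stress response gene, followed with a median of 429 RPKM in Car9-high and 257 RPKM in Car9-low tumors (0.90, adjusted p = 0.0567), and Mif, a cytokine, had 0.89 (adjusted p = 0.0744). Not all known targets had a positive value: Angptl4, an inhibitor of lipoprotein lipase, was at -0.29 (adjusted p = 0.558) and Stc2 at -0.16 (adjusted p = 0.810). The mean z-score of the list was between -0.26 and 0.96 in Car9-high and between -0.91 and 0.32 in Car9-low tumors. The 2 highest Car9-low tumors were insulin_18 (0.32) and insulin_27 (0.26), which were also those with the highest Car9 of that group. The tumors with the highest mean z-score of all were in neither group: X10_100 with 1.67 at a Car9 of 8.71 RPKM, and IGF1_160 with 1.06 at 6.83 RPKM. The label hypoxic thus describes the groups by the median of this list, and not every single tumor.

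**Figure D3:**
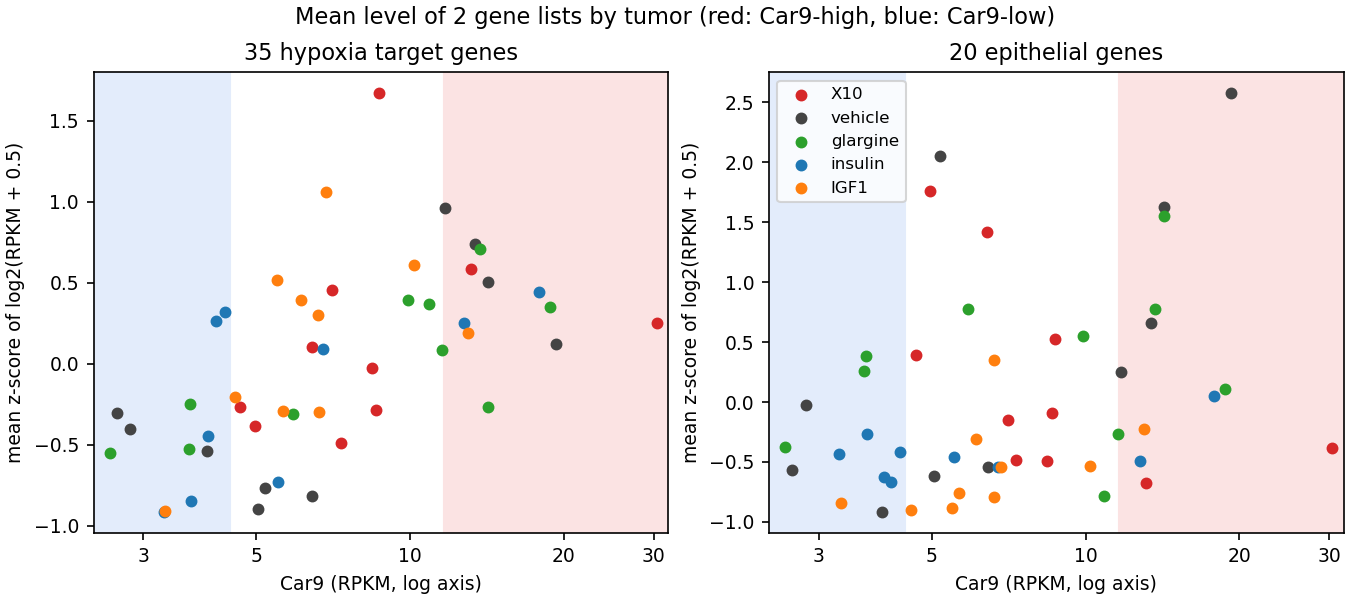
Mean z-score of log2(RPKM + 0.5) of the 35 hypoxia target genes (left) and of the 20 epithelial genes (right) by Car9 in RPKM (log axis) in 49 tumors, one point per tumor colored by treatment, with Car9-low tumors shaded blue and Car9-high tumors shaded red. The highest hypoxia z-score (1.67) lies between the groups, and Untreated_174, Untreated_195 and glargine_63 have the 3 highest epithelial z-scores of the groups.

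The hypoxia-inducible factors themselves did not pass the test. Hif1a had a median of 94.8 RPKM in Car9-high and 101 RPKM in Car9-low tumors (-0.23, adjusted p = 0.525, limma). Epas1, which encodes the alpha subunit of the second factor, had 10.8 and 14.7 RPKM (-0.46, adjusted p = 0.208). Of the oxygen sensors, Egln3 was between 8.98 and 34.1 RPKM (median 13.3 RPKM) against between 1.71 and 14.6 RPKM (median 7.26 RPKM), a difference of 1.07 ± 0.27 (adjusted p = 0.0976), and Egln1 had 0.35 (adjusted p = 0.214). The 10 tested genes of this list had a median of 0.01. At an unadjusted p-value under 0.05, 2 were higher and 2 lower, against 5.55% and 11.6% of all genes. Among 10 tested genes of pH and lactate handling none was called. Slc16a3, the lactate exporter MCT4, had a median of 108 RPKM against 49.9 RPKM (1.25, adjusted p = 0.119), and Bsg, its chaperone basigin, had 411 against 285 RPKM (0.46, adjusted p = 0.119). Of 17 genes of the tricarboxylic acid cycle, 1 had a positive value and 7 were lower at an unadjusted p-value under 0.05, with a median of -0.22, against 37.8% positive and 11.6% lower over all genes. The number of lower genes was 12 with treatment and 2 with the epithelial score as a covariate, and 4 with quantile normalization. Ogdh, a subunit of the oxoglutarate dehydrogenase complex, was closest to the threshold, with a median of 42.2 RPKM in Car9-high and 55.9 RPKM in Car9-low tumors (-0.43, adjusted p = 0.0577). The 34 nuclear genes of the respiratory chain had a median of -0.05, close to that of all genes, with 2 lower at an unadjusted p-value under 0.05, and with treatment as a covariate the median was -0.14 with 10 lower.

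**Figure D4:**
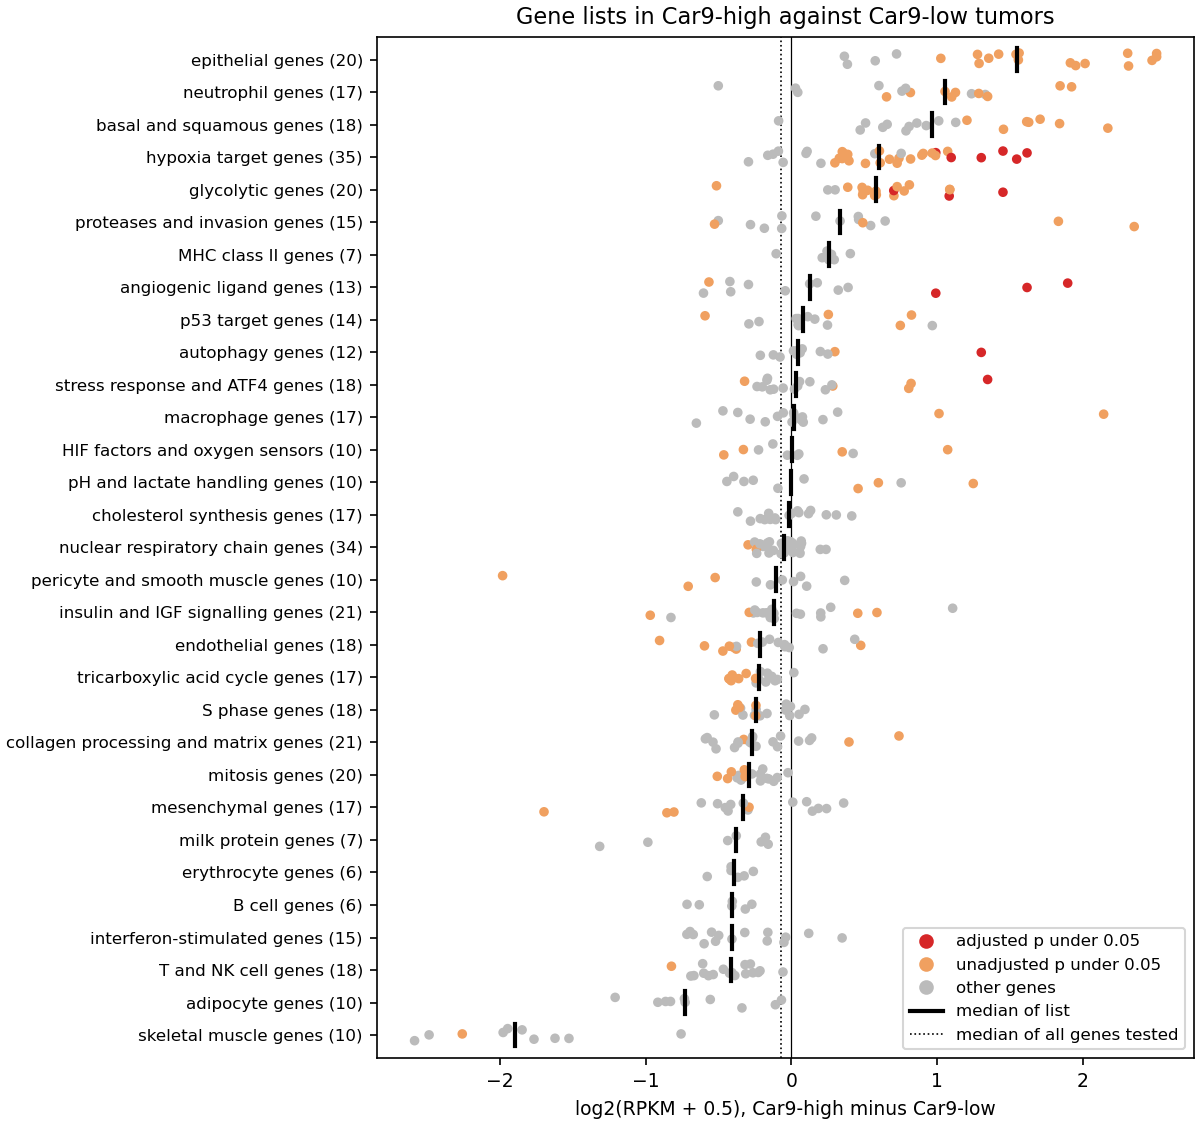
Difference in log2(RPKM + 0.5) between Car9-high and Car9-low tumors for each tested gene of 31 lists, one point per gene, with the number of tested genes beside the name, a bar at the median of each list and a dotted line at the median of all genes (-0.07). Genes with an adjusted p-value under 0.05 (red) are found in the hypoxia, glycolytic, angiogenic ligand, autophagy and stress response lists, while the epithelial list has the highest median (1.55) without such a gene, which was 0.53 without the 3 tumors of highest epithelial score.

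No gene of the cell type marker lists was called, but the medians of several of these lists lay far from that of all genes. All 20 tested epithelial genes had a positive difference, with a median of 1.55, against 37.8% positive over all genes. At an unadjusted p-value under 0.05, 16 were higher, against 5.55% of all genes, but none was called. Krt18, a keratin of luminal cells, had a median of 142 RPKM in Car9-high and 27.5 RPKM in Car9-low tumors (2.31 ± 0.54, adjusted p = 0.0775, limma), and Cdh1, which encodes E-cadherin, had 10.4 and 4.65 RPKM (1.56 ± 0.44, adjusted p = 0.124). The summed level of this list was between 154 and 9430 RPKM in Car9-high and between 31.2 and 518 RPKM in Car9-low tumors, and only Ovol1 of the list was at 0 in any of the 24 tumors. Within the 24 tumors of the groups, the 3 highest scores were in Untreated_174, Untreated_195 and glargine_63, in which Cdh1 was 106, 52.0 and 35.0 RPKM. Without these 3 tumors 14 genes were called, all 14 higher and 12 of them among the first 14, and the median of the hypoxia target genes was 0.66, but that of the epithelial genes fell to 0.53, with 19 positive and 5 higher at an unadjusted p-value under 0.05, and Cdh1 was at 0.91. The epithelial median was then below that of the neutrophil (0.83), hypoxia target and glycolytic genes (0.63). With the epithelial score as a covariate the median of the hypoxia target genes was 0.61, with 33 of 35 positive and 22 higher at an unadjusted p-value under 0.05, but the smallest adjusted p-value of any gene was 0.0546 (Slc2a1 1.52, Pgf 2.03). The median of the glycolytic genes was 0.59 in this fit, and over all genes 403 were higher and 636 lower at an unadjusted p-value under 0.05. The 18 tested basal and squamous genes had a median of 0.97, with 17 positive. At an unadjusted p-value under 0.05, 7 of them were higher, against 5.55% of all genes. Their median was 0.42 with 2 higher without the 3 tumors, and 0.02 with the epithelial score as a covariate.

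Of the immune cell lists, neutrophil genes had the highest median, 1.05, with 16 of 17 positive and 9 higher at an unadjusted p-value under 0.05, against 5.55% of all genes, none of them called. With the epithelial score as a covariate their median was 0.42, with 13 positive and 2 higher. Cxcl2, a chemokine for neutrophils, had a median of 7.97 RPKM in Car9-high and 2.01 RPKM in Car9-low tumors (1.84, adjusted p = 0.138, limma), and Trem1 had 11.0 and 4.65 RPKM (1.05, adjusted p = 0.137). The summed level of the neutrophil genes overlapped widely, between 104 and 5620 RPKM against between 464 and 6110 RPKM, and Ly6g, Ngp and Camp were at 0 in some tumors. Macrophage genes had a median of 0.01 (0.20 with the epithelial score as a covariate), but the protease Mmp12, known from macrophages, had a median of 92.3 against 15.9 RPKM (2.35, adjusted p = 0.0870, limma). The 18 T and NK cell genes all had negative values (median -0.42), 1 of them at an unadjusted p-value under 0.05, but 4 were positive with the epithelial score as a covariate (median -0.22), 2 without the 3 tumors of highest epithelial score (median -0.28) and 1 each with treatment as a covariate (median -0.29) and with quantile normalization. The 6 B cell genes had a median of -0.41, and of -0.24 with treatment as a covariate. Their part in the differences of the hypoxia target genes was not tested.

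No proliferation gene passed the test. None of 20 mitosis genes had a positive value (1 with upper quartile scaling, 3 with the epithelial score as a covariate), with a median of -0.29 and 6 lower at an unadjusted p-value under 0.05, against 11.6% of all genes lower and a median of -0.07. The number of lower mitosis genes was 10 with treatment as a covariate (median -0.36) and 1 with the epithelial score (median -0.16). The 18 S phase genes had a median of -0.24. Mki67 had a median of 15.2 RPKM in Car9-high and 21.7 RPKM in Car9-low tumors (-0.51, adjusted p = 0.207, limma). The mesenchymal genes had a median of -0.33 with 4 of 17 lower at an unadjusted p-value under 0.05, and of -0.16 with 1 lower with the epithelial score as a covariate. In this list Zeb1, a repressor of E-cadherin, was at -0.85 (adjusted p = 0.143, limma), at -0.27 with the epithelial score as a covariate and at -0.50 without the 3 tumors of highest score. In the 25 tumors between the groups the slope of Zeb1 on Car9 was -0.10, but the list went the other way there. Of the 17 mesenchymal genes 13 had a positive slope, with a median of 0.56 and 4 positive at an unadjusted p-value under 0.05. Skeletal muscle genes had the lowest median of all lists, -1.90, with 1 of 10 lower at an unadjusted p-value under 0.05 and summed levels between 7.21 and 1180 RPKM against between 6.04 and 4990 RPKM. With treatment as a covariate their median was -2.72, with 9 of 10 lower at an unadjusted p-value under 0.05. Adipocyte genes had a median of -0.73, with summed levels between 23.2 and 679 RPKM against between 30.0 and 343 RPKM, so that both groups held tumors with little and tumors with much RNA of these lists. Of the milk protein genes, which mark secretory mammary epithelium, Csn1s2a, Csn2, Wap and Glycam1 were at 0 in some of the 24 tumors.

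The receptors of the injected compounds did not pass the test. Igf1r had a median of 6.43 RPKM in Car9-high and 5.52 RPKM in Car9-low tumors (0.20, adjusted p = 0.591, limma), and Insr had 7.65 and 9.22 RPKM (-0.17, adjusted p = 0.527). The ligand gene Igf1 had 42.4 and 63.6 RPKM (-0.97, adjusted p = 0.183), and Igfbp3, a binding protein for it, had 202 and 168 RPKM (0.59, adjusted p = 0.262). In the list of 21 genes of insulin and IGF signalling none was called.

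The 25 tumors between the groups, which were not used for the comparison, were then examined for a slope of each gene on Car9, both on the log2 scale. No gene passed the test (0 of 16732, 0.0%, smallest adjusted p = 0.491, limma), with 827 genes at an unadjusted p-value under 0.05 (4.94%), 246 of them positive (1.47%). All 13 genes called higher between the groups had a positive slope, 7 of them at an unadjusted p-value under 0.05. The steepest of these were Adm (1.72), Bnip3 (1.52) and Pgf (1.37), and the flattest was Atf3 (0.02). Of the hypoxia target genes 32 of 35 had a positive slope, with a median of 0.53 and 15 at an unadjusted p-value under 0.05, and of the glycolytic genes 19 of 20, with a median of 0.48, against 39.1% positive and a median of -0.06 over all genes. Egln3 (1.54) and Slc16a3 (1.86) were among the steepest. The epithelial genes did not follow: 2 of 20 had a positive slope, with a median of -0.86, and for the basal and squamous genes it was 4 of 18. Neutrophil genes had a median slope of 0.16. The lower values of the tricarboxylic acid cycle genes between the groups were not seen here, with 10 of 17 positive slopes and a median of 0.07. Of the nuclear respiratory chain genes 29 of 34 had a positive slope (median 0.09), and Ogdh had a slope of -0.0007. T and NK cell genes had a median slope of -1.16, with 10 of 18 negative at an unadjusted p-value under 0.05, and MHC class II genes had a median slope of -1.37 where their median between the groups was 0.26.

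**Figure D5:**
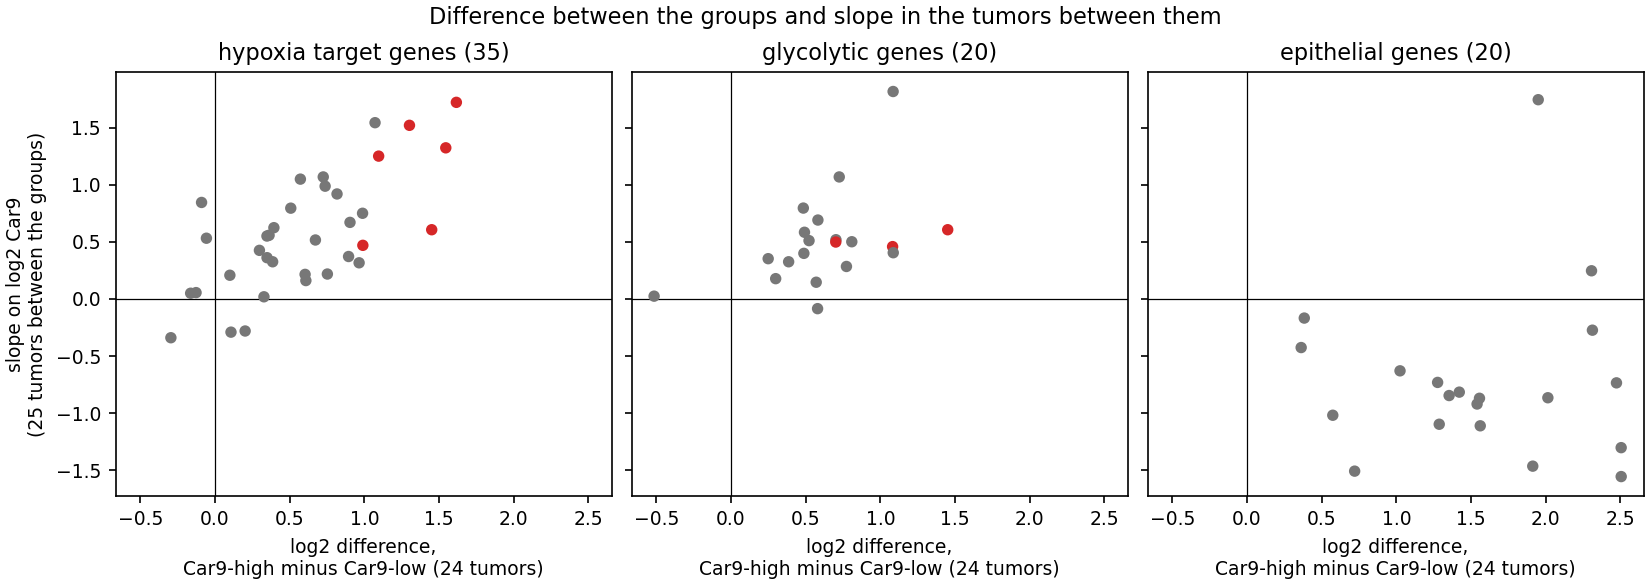
Difference between Car9-high and Car9-low tumors (x axis, log2 scale) and slope on log2 Car9 in the 25 tumors between the groups (y axis) for the hypoxia target, glycolytic and epithelial genes, one point per gene, with genes of an adjusted p-value under 0.05 in red. Positive slopes were seen for 32 of 35 hypoxia target and 19 of 20 glycolytic genes but for 2 of 20 epithelial genes.

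Single tumors had a clear effect on the number of genes called. It was between 12 and 70 when each of the 24 tumors was left out in turn. Without insulin_18 it was 70, without glargine_63 it was 43, without X10_95 it was 32, without X10_120 and without IGF1_136 it was 26 each, and without IGF1_135 it was 24. Of the hypoxia target genes 11 were called without insulin_18, and of the glycolytic genes 9 without insulin_18, 6 without glargine_63 and 5 without insulin_27. With 8 tumors per group 34 genes were called and with 16 per group 40 genes, and with insulin_13 kept in the ranking, where it is one of the Car9-low tumors, 76 genes were called, including all 14.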

How the data were processed

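The libraries of the 50 tumors were sequenced on the Ion Proton. Per the submitters' processing notes and the methods of the study, reads were aligned by the authors with TopHat2 (2.0.10) and Bowtie2 to the build GRCm38, HTSeq (0.6.1) was used for counting with its default options, which are specific to the strand, and RPKM values without log transformation, for which the methods name DEXSeq, were deposited in a single table. No strand setting is stated for this table. Low values lie on steps that depend on gene length and library size, from which library size was recovered (at least 99.0% of low values in every tumor equal a step after rounding to whole numbers at a scale of 100 M reads) and the reads of 15342 genes (91.7% of those tested).

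The members and the gene lists were chosen with earlier results of these data known. Tumors were ranked by Car9, leaving out insulin_13. The 16733 of 37701 genes whose RPKM averaged 0.5 or more over the 50 tumors entered limma (3.58.1, R 4.3.3) as log2(RPKM + 0.5), with an intensity trend and no covariates, and p-values were adjusted over 16732 genes after leaving out Car9. Differences are Car9-high minus Car9-low on this log2 scale, which understates the change of low genes, and are given with their standard errors. Named were the 10 genes of smallest p-value in each direction under an adjusted p-value of 0.05, apart from Gm, Rik, Mir, Snor, Rps and Rpl names, up to 4 genes of smallest p-value of each of 31 lists, and 12 genes fixed by name (Vegfa, Slc2a1, Slc16a3, Hif1a, Epas1, Egln3, Ldha, Pecam1, Mki67, Cdh1, Igf1r, Insr). Other list members named, Unc13a, Gm16754 and Gm6425 were chosen after their values were seen. Some genes that this rule names are not reported here. For list scores each gene was standardized over 49 tumors and then averaged (z-score). The fit was run on simulated data with independent genes, known changes and groups set in advance. Such a simulation does not cover groups formed by ranking tumors on a gene that varies together with others. Each tumor is from 1 mouse, as the labels number them, so p-values measure the spread between mice. The labels give no sequencing batch or date. Coordinates are from GENCODE M21 and windows before gene starts from RefSeq, both on GRCm38. Python 3.11.15, scipy 1.17.1 and matplotlib 3.10.9 were used for permutation tests and figures.

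As alternatives the pseudocount was set to 0.1 or 1, the filter was changed to any nonzero value or to an average RPKM of 5, values were quantile normalized or scaled by their upper quartile, the intensity trend was left out, and further fits had treatment, epithelial score or library size as a covariate, 8 or 16 tumors per group, insulin_13 kept, a slope over 49 tumors, limma voom on recovered reads, and each tumor left out in turn. Leaving out the 3 tumors of highest epithelial score was added after seeing the data.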

Additional observations from a re-analysis of the deposited data

Results flagged for a closer look

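X10_95 had the highest Car9 of all tumors, 30.4 RPKM. On RPKM without log transformation its distance to the next X10 tumor was 0.670 of the range of the 10 tumors, above the critical value of 0.466. The distance was not examined on the log2 scale used for the tests, on which high values are closer together. About 1 in 20 groups of normally distributed values is expected to show such a tumor by chance, and 5 treatment groups were examined. Its hypoxia z-score was 0.25, within the range of the Car9-high tumors. Without X10_95, 32 genes were called between the groups.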

How the results depend on the processing

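Of the 14 genes called between Car9-high and Car9-low tumors, all 14 were also called with pseudocounts of 0.1 and 1, with upper quartile scaling, without intensity trend, with treatment or library size as a covariate, with insulin_13 kept and by limma voom on the recovered reads (15 genes called), and 12 in the slope over 49 tumors. Fewer of the 14 remained in other fits: 10 with 8 and 13 with 16 tumors per group, 13 with quantile normalization and 8 over all genes with a nonzero value. The number of genes called was 22 with a pseudocount of 0.1, 8 over all genes with a nonzero value, 23 at a mean RPKM of at least 5, 24 with treatment and 0 with the epithelial score as a covariate, 34 with 8 and 40 with 16 tumors per group, 76 with insulin_13 kept and 99 in the slope over 49 tumors. Of the hypoxia target genes, 0 were called with the epithelial score, 11 with 16 tumors per group and 10 with insulin_13 kept, and of the glycolytic genes 0, 10 and 9, with 5 for 8 tumors per group and 10 in the slope over 49 tumors. Leaving out each tumor in turn gave between 12 and 70 genes, between 6 and 11 hypoxia target genes and between 3 and 9 glycolytic genes. The smaller number over all genes with a nonzero value goes along with 35562 genes tested, and the cause of the other changes was not tested. Quantile normalization gave 17 genes, all higher, against 13 of 14 in the main comparison. No slope in the 25 tumors between the groups was called under any of the alternatives run for it (0 genes, between 462 and 1579 at an unadjusted p-value under 0.05). Among the genes named by the rule or in the text, the direction turned for these, none of them called: Ms4a1 (between -0.48 and 0.0036), Csn2 (between -0.83 and 0.14) and Cd79a (between -0.58 and 0.091) with 1 tumor left out, Cd79a with 8 tumors per group (0.14), H2-Eb1 (-0.0195), H2-DMa (-0.0312), H2-DMb1 (-0.0567) and Cd74 (-0.0949) with 16 tumors per group, and Stard4 (0.0392) and Hif1a (0.0594) with the epithelial score. Other hypoxia target genes with differences near 0 also turned, among them Lox (from -0.13 to 0.17), Rora (from -0.09 to 0.27) and Vldlr (from -0.06 to 0.31) with the epithelial score and Ppp1r3c (from 0.11 to -0.09) with treatment as a covariate. No paired analysis was possible because every tumor has a mouse number of its own. The share of variance of Car9 between treatments was 5.63% without log transformation and 7.23% with insulin_13 kept, neither past the test (p = 0.645 and 0.486, permutation tests). Gm16754 and Gm6425 have the lowest RPKM of the called genes and lie closest to the pseudocount.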

Other observations

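Several lists differed in direction between the groups and the 25 tumors between them, and no test of that change was made. The 17 tested genes of cholesterol synthesis had a median of -0.02 between the groups (0.01 with quantile normalization, 0.02 with upper quartile scaling, -0.11 with treatment as a covariate), with 8 positive, but all 17 had a positive slope on Car9 in the tumors between them, with a median of 0.47 and 5 at an unadjusted p-value under 0.05. Fdft1, which encodes squalene synthase, was at 0.31 between the groups (adjusted p = 0.388, limma) with a slope of 0.72. The 21 collagen processing and matrix genes had a median of -0.27 between the groups and 19 positive slopes, with a median of 0.35. Among them P4ha2 and P4ha1, which encode the alpha subunits of the prolyl hydroxylase of collagen and also belong to the hypoxia target genes, had values of 0.74 and 0.39 between the groups (adjusted p = 0.122 and 0.202) and slopes of 0.99 and 0.62, while Sparc, a matrix protein, had -0.37 and 0.21.

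The 15 interferon-stimulated genes had a median of -0.41 between the groups and 0 positive slopes, and the MHC class II genes had 6 of 7 positive values between the groups and 0 positive slopes. Cd74, the invariant chain of MHC class II, had a median of 1042 RPKM in Car9-high and 578 RPKM in Car9-low tumors (0.27, adjusted p = 0.787, limma) and a slope of -1.44. The p53 target genes had a median of 0.08, of which Cdkn1a, an inhibitor of the cell cycle, had a median of 58.2 against 34.8 RPKM (0.75, adjusted p = 0.124) and Ccng1 had 23.3 against 29.9 RPKM (-0.59, adjusted p = 0.143). The 15 protease and invasion genes had a median of 0.33, and Mmp10 had a median of 44.9 against 7.02 RPKM (1.83, adjusted p = 0.132). The autophagy genes other than Bnip3 had no call, and the erythrocyte genes (median -0.39, 0 of 6 positive) and the pericyte and smooth muscle genes (median -0.10, 4 of 10 positive) had none either. With the epithelial score as a covariate, the median was -0.78 for the erythrocyte genes, -0.06 for the collagen processing and matrix genes, 0.17 for the protease and invasion genes and 0.65 for the MHC class II genes.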
